A study of Mus musculus with 23 samples.

Results

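The Krüppel-like factors are a family of transcription factors with zinc fingers at the end of the protein, and 10 of their genes, Klf2, Klf3, Klf4, Klf5, Klf6, Klf9, Klf10, Klf11, Klf13 and Klf15, were followed here in the quadriceps of mice given corticosterone. They were matched by symbol to the 55573 Ensembl gene IDs of the count table, and each matched 1 ID. RNA came from 23 C57Bl6 mice (C57BL/6J in the study's methods) in 4 groups, 6 vehicle-treated males, 6 corticosterone-treated males, 6 vehicle-treated females and 5 corticosterone-treated females, at an age of 8 to 10 weeks. For 14 days the treated mice had a slow-release implant with 50 mg of corticosterone and 50 mg of cholesterol, and the vehicle-treated mice an implant with 100 mg of cholesterol. The implant and a fast of 5 hours before death were common to the 4 groups. The whole muscle was used, so a lower number of cells of a type and less RNA per cell cannot be told apart. Mice are called by a letter for sex and a number, as in M1 and F2.

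Krüppel-like factors bind GC-rich and CACCC-containing DNA and act as activators or repressors, depending on the proteins they recruit. Klf9 and Klf15 are known targets of the glucocorticoid receptor (GR), the nuclear receptor that corticosterone activates, and Klf15 drives genes of amino acid breakdown in liver and muscle. Klf10 and Klf11 were first described as early genes of transforming growth factor beta (TGF-β) and recruit the Sin3 repressor complex, Klf3 recruits the repressor CtBP, and Klf2 and Klf4 are best known from endothelial cells, where blood flow induces them.

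Reads on genes came to between 20904150 and 21984477 read pairs per mouse, and a member had between 52 and 6854 read pairs in a mouse. Levels are given as read pairs per 1000000 on genes (CPM) after TMM scaling, which adjusts for the composition of the libraries. All 10 members passed the filter on low counts, together with 13049 of the 55573 gene IDs in all. The log2 fold change (log2FC) and adjusted p-value of each comparison come from edgeR's quasi-likelihood test over these 13049 genes, with an adjusted p-value under 0.01 as the threshold, and errors of log2FC are standard errors.

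The libraries were of skeletal muscle, in that the summed level of 12 myofiber markers lay between 92990 and 252000 CPM in every mouse. These markers cannot tell the quadriceps from another limb muscle. Within vehicle-treated males some of them varied widely, as Myh7 (0.0938 to 1064 CPM) and Mb (245 to 5563 CPM), and others little, as Acta1 (31760 to 42440 CPM). Some libraries also held transcripts of other tissues. The summed level of 8 adipocyte markers reached 3909 CPM in F2, 7415 CPM in F6 and 3535 CPM in F10, all corticosterone-treated females, against 306 to 2696 CPM in vehicle-treated females and at most 1072 CPM in males. The summed level of 8 hepatocyte markers reached 2535 CPM in M8 and 2455 CPM in F10. It was 1493 CPM in M9, 1482 CPM in M12 and 1133 CPM in F6, and at most 325 CPM in the other mice.

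The members lie on 10 different chromosomes (GRCm38 coordinates, GENCODE M21). Klf15 (ENSMUSG00000030087) spans chr6:90462576-90475238 on the plus strand, Klf6 (ENSMUSG00000000078) spans chr13:5861482-5870394 on the plus strand, Klf9 (ENSMUSG00000033863) spans chr19:23141226-23168134 on the plus strand, Klf10 (ENSMUSG00000037465) spans chr15:38291463-38300706 on the minus strand and Klf13 (ENSMUSG00000052040) spans chr7:63886351-63938915 on the minus strand. Klf3 shares exons or introns with C230096K16Rik on its own strand and with Gm20033 on the other, and Klf13 overlaps Gm27252 and E030018B13Rik on the other strand. The counting used the strand, so reads of the opposite genes count apart, while reads in the stretch that Klf3 shares with C230096K16Rik are uncertain.

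The 250 bases before the RefSeq transcription start are shown for 4 members that were upregulated by corticosterone in males, because they differ in holding the E-box CACGTG, the palindromic element bound by the clock proteins CLOCK and BMAL1 and by other helix-loop-helix factors. Sequences are from the RefSeq table on GRCm38.p6, read 5′ to 3′ on the strand of the gene, with CACGTG in capitals. Klf15 (chr6:90462326-90462575, plus strand) holds it at 228 and at 172 bases before the start and Klf6 (chr13:5861239-5861488, plus strand) at 43 bases before the start, while the windows of Klf9 (chr19:23140976-23141225, plus strand) and Klf13 (chr7:63938916-63939165, minus strand) hold none.
Klf15: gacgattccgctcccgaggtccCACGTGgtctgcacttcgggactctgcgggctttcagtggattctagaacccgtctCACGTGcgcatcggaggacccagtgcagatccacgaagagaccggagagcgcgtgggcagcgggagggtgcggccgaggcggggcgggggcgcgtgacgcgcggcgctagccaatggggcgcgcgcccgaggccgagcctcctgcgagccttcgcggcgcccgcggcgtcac
Klf6: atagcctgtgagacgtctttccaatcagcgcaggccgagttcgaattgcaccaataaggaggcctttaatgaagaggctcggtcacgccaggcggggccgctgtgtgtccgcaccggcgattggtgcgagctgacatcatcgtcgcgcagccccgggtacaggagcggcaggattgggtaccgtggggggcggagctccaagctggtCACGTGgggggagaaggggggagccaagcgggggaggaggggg
Klf9: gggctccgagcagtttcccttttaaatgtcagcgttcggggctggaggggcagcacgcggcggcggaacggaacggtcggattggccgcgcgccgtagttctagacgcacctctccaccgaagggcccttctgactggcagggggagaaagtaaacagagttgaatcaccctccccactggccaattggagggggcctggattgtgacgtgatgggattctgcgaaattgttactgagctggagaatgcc
Klf13: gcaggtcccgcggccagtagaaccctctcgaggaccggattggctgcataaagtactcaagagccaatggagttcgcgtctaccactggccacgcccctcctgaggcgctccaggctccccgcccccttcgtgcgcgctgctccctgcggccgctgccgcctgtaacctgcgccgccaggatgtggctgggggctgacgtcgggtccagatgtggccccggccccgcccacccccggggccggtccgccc

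Windows were at hand for 8 members, all but Klf5 and Klf10. CACGTG stood in 4 of them (Klf4, Klf6, Klf11 and Klf15), against 6.02% of 32851 windows of the same length. The GC box GGGCGG, searched on both strands, stood in 7 of the 8 (all but Klf9), against 32.7% of windows, and CACCC, a core of the family's own binding element, in 5 of the 8 against 52.0%. The sequence TGTTCT, a part of the GR binding element, stood in 0 of the 8 windows, against 16.1% of all. The D-box TTATGTAA stood in 0 of the 8, against 0.819%. The 8 windows were rich in G and C, from 59.6% (Klf9) to 78.4% (Klf3), and were not compared with windows of like composition. These shares therefore do not show an excess or a lack of an element beyond composition. A match describes these letters only.

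Compared per length, as CPM per kilobase of merged exons, Klf9 had the highest level of the members in every group. Its mean was 36.3 ± 5.12 CPM per kilobase (SD, n = 6) in vehicle-treated males, 57.4 ± 4.89 (n = 6) in corticosterone-treated males, 39.5 ± 5.84 (n = 6) in vehicle-treated females and 42.7 ± 3.53 (n = 5) in corticosterone-treated females. Klf15 came next in vehicle-treated males at 13.2 ± 2.13 CPM per kilobase, and its mice did not overlap those of Klf9 but did overlap the highest mouse of Klf2 (M3).

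Below Klf15, the levels per kilobase of Klf2, Klf6, Klf10, Klf4 and Klf13 in vehicle-treated males followed each other closely, with means of 6.999, 6.72, 6.56, 5.17 and 5.13 CPM per kilobase and overlapping mice. Klf11 at 1.69, Klf3 at 1.24 and Klf5 at 0.674 CPM per kilobase were the lowest, and the mice of these 3 did not overlap those of the 5 above. In corticosterone-treated males Klf10 stood at 24.8 ± 6.56 and Klf6 at 17.0 ± 1.47 CPM per kilobase, above Klf13 at 10.8 ± 2.32 and Klf2 at 10.1 ± 0.976. Klf10 then overlapped Klf15 at 30.0 ± 4.74 CPM per kilobase.

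**Figure D1:**
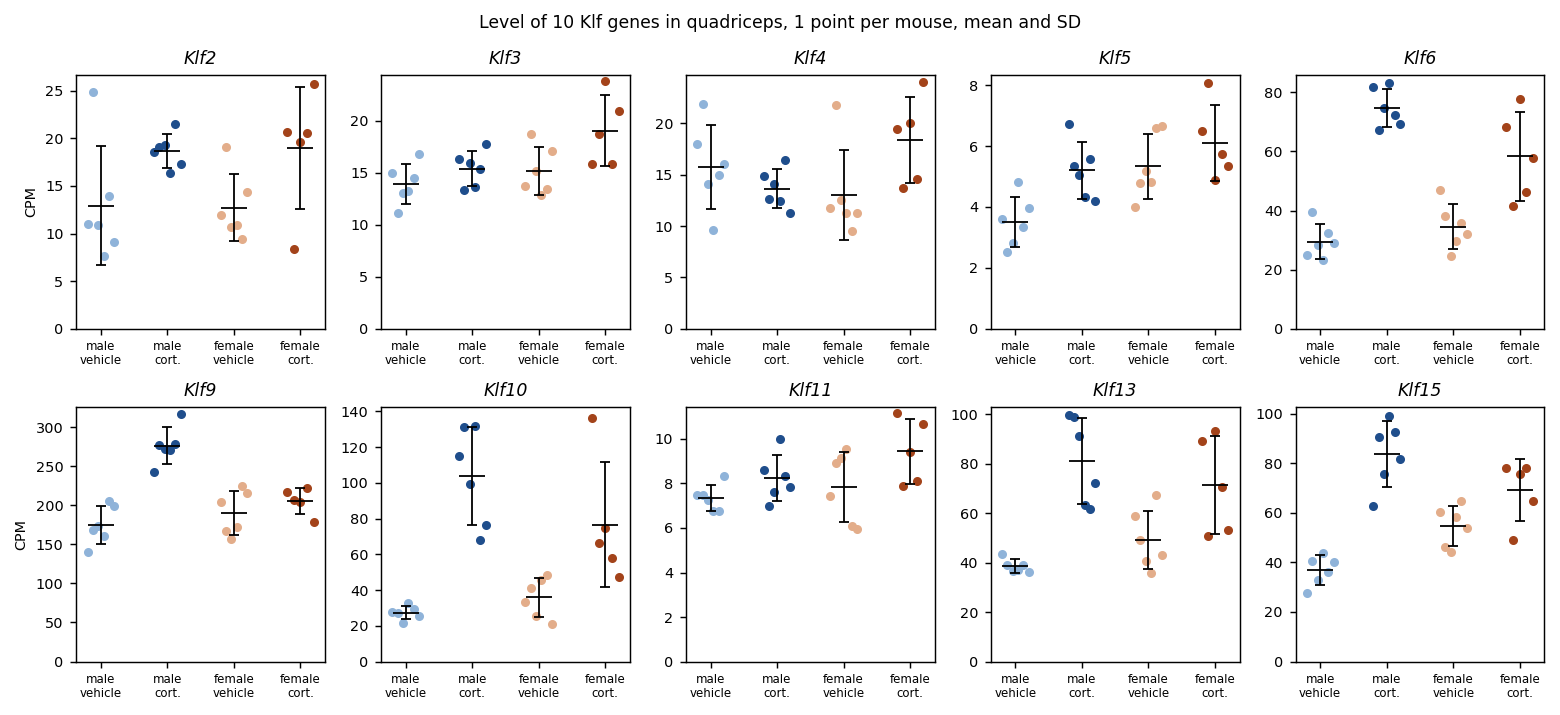
CPM of each of the 10 Klf genes in every mouse, by group (cort., corticosterone), with the mean and SD as bars and each axis starting at 0. The 6 corticosterone-treated males lie above all 6 vehicle-treated males for Klf6, Klf9, Klf10, Klf13 and Klf15, and in females no gene separates the groups fully.

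In males, the question was which members respond to corticosterone. Klf6, Klf9, Klf10, Klf13 and Klf15 were upregulated, by 1.58-fold (Klf9) to 3.78-fold (Klf10). These 5 of 10 compare with 13.2% of all genes tested that were upregulated in males. No member was downregulated (0 of 10, against 13.1% of all genes), and none with a negative log2FC had an unadjusted p-value under 0.05 in edgeR or passed in DESeq2 or limma-voom. For the same 5 members the lowest treated male exceeded the highest vehicle-treated male, which held for 10.8% of all genes. In the other direction the groups were apart for 0 members and 11.1% of genes. The median log2FC was 0.61 over the 10 members and -0.02 over all genes tested.

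Klf15, the activator of amino acid breakdown, had 27.7 to 43.8 CPM (median 38.2) in vehicle-treated males and 62.6 to 99.0 CPM (median 86.1) in corticosterone-treated males. The lowest treated male (M2) thus stood well above the highest vehicle-treated male (M7). The log2FC was 1.18 ± 0.136, with an edgeR adjusted p-value of 1.17e-06.

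Klf9, a repressor and a known GR target in several tissues, had 140 to 206 CPM (median 171) in vehicle-treated males. Its level was 243 to 317 CPM (median 275) in corticosterone-treated males. The groups did not overlap although the response was the smallest of the 5, with a log2FC of 0.66 ± 0.103 and an edgeR adjusted p-value of 3.74e-05. Klf13, the closest relative of Klf9 among the members, had 36.2 to 43.6 CPM (median 38.1) without and 61.8 to 99.7 CPM (median 81.7) with corticosterone. Every treated male was above all vehicle-treated males. The log2FC of Klf13 was 1.07 ± 0.170 (edgeR adjusted p-value 4.7e-05).

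Klf10 had the largest response of the members in males. It rose from 21.7 to 33.0 CPM (median 27.4) in vehicle-treated males to 67.8 to 132 CPM (median 107) in corticosterone-treated males, with a log2FC of 1.92 ± 0.242 and an edgeR adjusted p-value of 3.3e-06. Klf11, the other early gene of TGF-β, had 6.75 to 8.33 CPM (median 7.36) without and 7.004 to 9.995 CPM (median 8.09) with corticosterone, and its groups overlapped. Its log2FC was 0.17 ± 0.125 (edgeR adjusted p-value 0.307), with a 95% interval from -0.09 to 0.43 that lies below that of Klf10, from 1.42 to 2.42.

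Klf6, a broadly expressed member induced by injury, had 23.1 to 39.4 CPM (median 28.7) in vehicle-treated males and 67.2 to 83.0 CPM (median 73.5) in corticosterone-treated males. The treated males were close together, with an SD of 6.47 CPM around 74.7 CPM. The log2FC was 1.34 ± 0.158, with an edgeR adjusted p-value of 1.56e-06.

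The remaining members did not pass in males. Klf5, which takes part in smooth muscle and muscle cell differentiation, had 2.53 to 4.82 CPM (median 3.46) without and 4.204 to 6.72 CPM (median 5.19) with corticosterone, and 4 of 6 treated males lay above all vehicle-treated males. Its log2FC of 0.57 ± 0.169 missed the threshold narrowly (edgeR adjusted p-value 0.0108), and passed it with DESeq2 (0.00458) and limma-voom (0.00526).

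Klf2 had 7.68 to 24.9 CPM (median 10.97) in vehicle-treated males and 16.3 to 21.5 CPM (median 18.8) in corticosterone-treated males. The overlap came from M3 alone, a vehicle-treated male with 24.9 CPM. The log2FC was 0.53 ± 0.251 (edgeR adjusted p-value 0.0972), and 0.82 ± 0.218 without M3 (adjusted p-value 0.00562). M3 had the highest Klf2 of its group, so leaving it out had to raise the log2FC. Klf4, the other endothelial member, had 9.59 to 21.9 CPM (median 15.5) without and 11.2 to 16.5 CPM (median 13.4) with corticosterone, a log2FC of -0.21 ± 0.194 (edgeR adjusted p-value 0.404). It was the only member with a negative log2FC in males. Klf3 had 11.2 to 16.7 CPM (median 13.8) and 13.4 to 17.7 CPM (median 15.7), with a log2FC of 0.14 ± 0.118 (edgeR adjusted p-value 0.355).

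In females, Klf10 and Klf6 were upregulated, by 2.14-fold and 1.69-fold, and the log2FC of the other 8 members was positive without passing. These 2 of 10 compare with 7.40% of all genes tested, and 783 of the 13049 genes were downregulated. In no member did the groups fall apart (0 of 10 upwards against 3.38% of genes, and 0 of 10 downwards against 4.34%). With each sex fitted alone neither passed, at a log2FC of 1.09 ± 0.285 for Klf10 and 0.76 ± 0.188 for Klf6 (edgeR adjusted p-values 0.0257 and 0.0219). That fit called 4.12% of all genes in females, in either direction. The median log2FC was 0.42 over the members and 0.04 over all genes.

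Klf10 had 21.2 to 48.4 CPM (median 37.2) in vehicle-treated females. In corticosterone-treated females it had 137 CPM in F2, 66.2 CPM in F4, 74.7 CPM in F6, 58.2 CPM in F8 and 47.1 CPM in F10. All but F10 were above every vehicle-treated female, and F2 was far above the others. The log2FC was 1.09 ± 0.245 (edgeR adjusted p-value 0.00265), and 0.78 ± 0.215 without F2 (adjusted p-value 0.0143). Leaving out F2, the highest treated female, had to lower the log2FC.

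Klf6 had 24.6 to 46.8 CPM (median 34.0) in vehicle-treated females. In corticosterone-treated females it had 68.3 CPM in F2, 41.7 CPM in F4, 77.9 CPM in F6, 46.3 CPM in F8 and 57.8 CPM in F10. F4 and F8 thus stayed within the range of vehicle-treated females. The log2FC was 0.76 ± 0.163 (edgeR adjusted p-value 0.00193), and 0.62 ± 0.160 without F6 (adjusted p-value 0.0115). Leaving out F6, the highest treated female, had to lower the log2FC.

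The 3 treated females with the highest Klf6, F2, F6 and F10, were also the 3 with the highest summed adipocyte markers. Of the 8 markers, Lep and Lipe were upregulated in females and the other 6 did not pass, and none of the 8 passed in males. F8 had 305 CPM of these markers in sum, below every vehicle-treated female, with Klf10 above and Klf6 within the vehicle range. Without F2, F6 and F10 the log2FC was 0.79 ± 0.262 for Klf10 and 0.34 ± 0.184 for Klf6 (edgeR adjusted p-values 0.104 and 0.353, with 2 treated females left). Since F2, F6 and F10 had the highest Klf6 of the treated females, leaving them out had to lower the log2FC of Klf6. The part of these transcripts in the female result was not tested.

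Klf15 had 44.4 to 64.7 CPM (median 56.3) in vehicle-treated females. In corticosterone-treated females it had 78.2 CPM in F2, 49.0 CPM in F4, 75.6 CPM in F6, 78.3 CPM in F8 and 64.8 CPM in F10. All but F4 lay above the vehicle-treated females, F10 only just. The log2FC was 0.34 ± 0.140 (edgeR adjusted p-value 0.0774).

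Klf9 had 157 to 224 CPM (median 188) in vehicle-treated females. In corticosterone-treated females it had 217 CPM in F2, 207 CPM in F4, 204 CPM in F6, 222 CPM in F8 and 178 CPM in F10, all inside the vehicle range. The log2FC was 0.11 ± 0.107 (edgeR adjusted p-value 0.466), with a 95% interval from -0.11 to 0.34.

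Klf13 had 36.0 to 67.4 CPM (median 46.2) in vehicle-treated females, and 89.4 CPM in F2, 50.9 CPM in F4, 93.4 CPM in F6, 70.5 CPM in F8 and 53.2 CPM in F10. F2, F6 and F8 were above all vehicle-treated females. The log2FC was 0.54 ± 0.176 (edgeR adjusted p-value 0.0276). It passed with limma-voom (0.69 ± 0.183, adjusted p-value 0.00658) and, in edgeR, without F4 (0.64 ± 0.177, adjusted p-value 0.00942). F4 had the lowest Klf13 of the treated females, so leaving it out had to raise the log2FC.

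Among the members of endothelial cells, Klf2 had 9.41 to 19.1 CPM (median 11.4) in vehicle-treated females, and with corticosterone it was above that range in F2, F6, F8 and F10 (19.6 to 25.7 CPM) and below it in F4 (8.41 CPM). Its log2FC was 0.58 ± 0.262 (edgeR adjusted p-value 0.106). Klf4 had 9.56 to 21.8 CPM (median 11.5) without and 13.8 to 24.0 CPM (median 19.5) with corticosterone, and the highest vehicle-treated female was F3. Its log2FC was 0.50 ± 0.202 (edgeR adjusted p-value 0.0721), 0.72 ± 0.177 without F3 (adjusted p-value 0.00545) and 0.11 ± 0.265 without F2, F6 and F10 (0.878). Leaving out F3 had to raise this log2FC, and leaving out F2, F6 and F10, the highest treated females, had to lower it. The summed level of 12 endothelial markers was 318 to 730 CPM in vehicle-treated and 415 to 616 CPM in corticosterone-treated females. In the males it was 344 to 553 and 306 to 436 CPM. Of the 12, 1 (Tek) was downregulated in males and 0 passed in females. At an unadjusted edgeR p-value under 0.05, 0 were higher and 7 lower in treated males, against 48.2% of all genes in either direction. In treated females 1 was higher and 1 lower, against 38.6%. The median log2FC of the 12 was -0.45 in males and -0.05 in females.

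Klf3, Klf5 and Klf11 did not pass in females. Klf3, the CtBP-recruiting repressor, had 12.9 to 18.8 CPM (median 14.4) without and 15.8 to 23.8 CPM (median 18.7) with corticosterone, a log2FC of 0.33 ± 0.123 (edgeR adjusted p-value 0.0526). Klf11 had a log2FC of 0.27 ± 0.130 (edgeR adjusted p-value 0.133) and Klf5 of 0.19 ± 0.174 (adjusted p-value 0.435), with overlapping groups for both.

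The log2FC in females of several members that did not pass also moved by over 1.5 times without F2, F6 and F10, the mice with the most adipocyte markers. It was lower, at 0.29 ± 0.210 for Klf13, 0.21 ± 0.193 for Klf15, 0.18 ± 0.355 for Klf2, 0.18 ± 0.151 for Klf3 and 0.02 ± 0.171 for Klf11, and was higher for Klf5, at 0.36 ± 0.232. The edgeR adjusted p-values of these 6 were 0.441 to 0.976, with 2 treated females left. F2, F6 and F10 had the highest Klf11 and Klf4 of the treated females, so leaving them out had to lower these 2 genes.

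**Figure D2:**
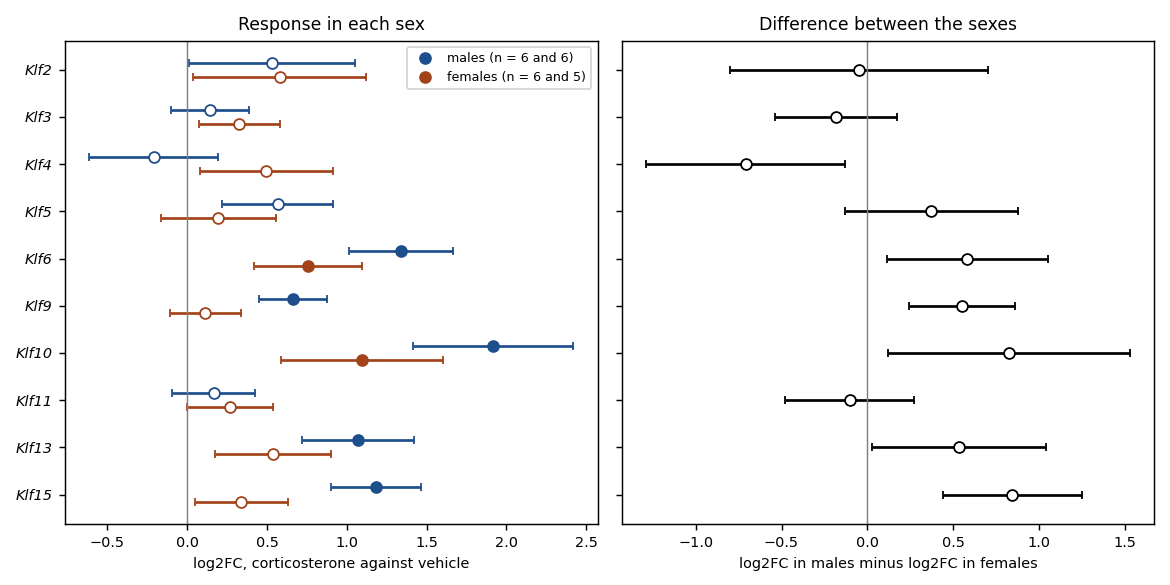
Left, log2FC of corticosterone against vehicle for each member in males (blue, upper) and females (orange, lower), with 95% intervals and filled symbols for an adjusted p-value under 0.01. Right, the difference between the log2FC of males and of females with its 95% interval. The filled symbols are Klf6, Klf9, Klf10, Klf13 and Klf15 in males and Klf6 and Klf10 in females, and no difference between the sexes reached the threshold.

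Passing in males alone does not show a different response, so the interaction between sex and treatment was also fitted. No member passed (0 of 10, against 0.690% of all genes). With edgeR, 6 of 10 members had an unadjusted p-value under 0.05, as did 32.1% of all genes. DESeq2 called Klf9 and Klf15 (2 of 10, against 6.87% of all genes), and limma-voom called 0 (against 5.31%).

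Klf15 had the smallest interaction p-value. Its response was larger in males by a log2 difference of 0.84 ± 0.195 (95% interval 0.44 to 1.25, edgeR adjusted p-value 0.016, DESeq2 adjusted p-value 0.00116). Klf9 differed by 0.55 ± 0.149 (0.24 to 0.86, edgeR adjusted p-value 0.025, DESeq2 0.00368). For Klf6 the difference was 0.58 ± 0.226, for Klf10 0.82 ± 0.340 and for Klf13 0.53 ± 0.245, with edgeR adjusted p-values of 0.0847, 0.103 and 0.138. Without F2, F6 and F10, the treated females with the highest Klf6, the difference for Klf6 was 1.02 ± 0.236 (edgeR adjusted p-value 0.0598).

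The difference was negative for Klf4, Klf3, Klf11 and Klf2. Klf4 had a log2 difference of -0.71 ± 0.280 (95% interval -1.29 to -0.13, edgeR adjusted p-value 0.0899), and of -0.31 ± 0.324 without F2, F6 and F10 (0.665). Its mean was 15.8 CPM without and 13.6 CPM with corticosterone in males, and 13.0 and 18.4 CPM in females, neither response past the threshold. For Klf2 the difference was -0.05 ± 0.363 (-0.80 to 0.71), an interval that leaves a difference in either direction. Klf3 differed by -0.19 ± 0.171, Klf11 by -0.10 ± 0.181 and Klf5, in the other direction, by 0.37 ± 0.242 (edgeR adjusted p-values 0.470, 0.720 and 0.294).

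The level of the members was also compared between the sexes at each treatment. Whether the male and female libraries were made together was not given in the sources used here, so a batch and the sex cannot be told apart in these comparisons. Among vehicle-treated mice no member passed (0 of 10, against 0.958% of all genes). With edgeR, 2 of 10 had an unadjusted p-value under 0.05, as did 13.2% of all genes. DESeq2 and limma-voom each called 1, Klf15, and 2.18% and 1.43% of all genes.

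For Klf15, every vehicle-treated male (27.7 to 43.8 CPM) lay below every vehicle-treated female (44.4 to 64.7 CPM), an order held by 0.935% of all genes. The log2 ratio of males to females was -0.57 ± 0.135 (edgeR adjusted p-value 0.0232, DESeq2 0.00345, limma-voom 0.00911). With corticosterone the ranges overlapped, 62.6 to 99.0 CPM in males and 49.0 to 78.3 CPM in females, with a log2 ratio of 0.27 ± 0.141 (edgeR adjusted p-value 0.128). These comparisons share their mice with the responses above, so the lower start in males and the larger male log2FC are not independent of each other. Klf5 had a similar log2 ratio among vehicle-treated mice, -0.60 ± 0.169 (edgeR adjusted p-value 0.0621), with overlapping mice.

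Among corticosterone-treated mice, Klf9 was higher in males, the only one of the members to pass (1 of 10, against 23.3% of all genes). Every treated male (243 to 317 CPM) lay above every treated female (178 to 222 CPM), as for 6.87% of all genes. The log2 ratio was 0.43 ± 0.108 (edgeR adjusted p-value 0.00404). Without F10 it was 0.41 ± 0.113 (adjusted p-value 0.0112), and without M12, the male with the highest Klf9, 0.38 ± 0.109 (adjusted p-value 0.0104). F10 had the lowest Klf9 of the treated females, so leaving out either mouse had to lower the ratio. Without F10 and M8, the libraries with the most hepatocyte markers, it was 0.41 ± 0.12 (adjusted p-value 0.0168), and without F2, F6 and F10 it was 0.38 ± 0.149 (0.121).

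**Figure D3:**
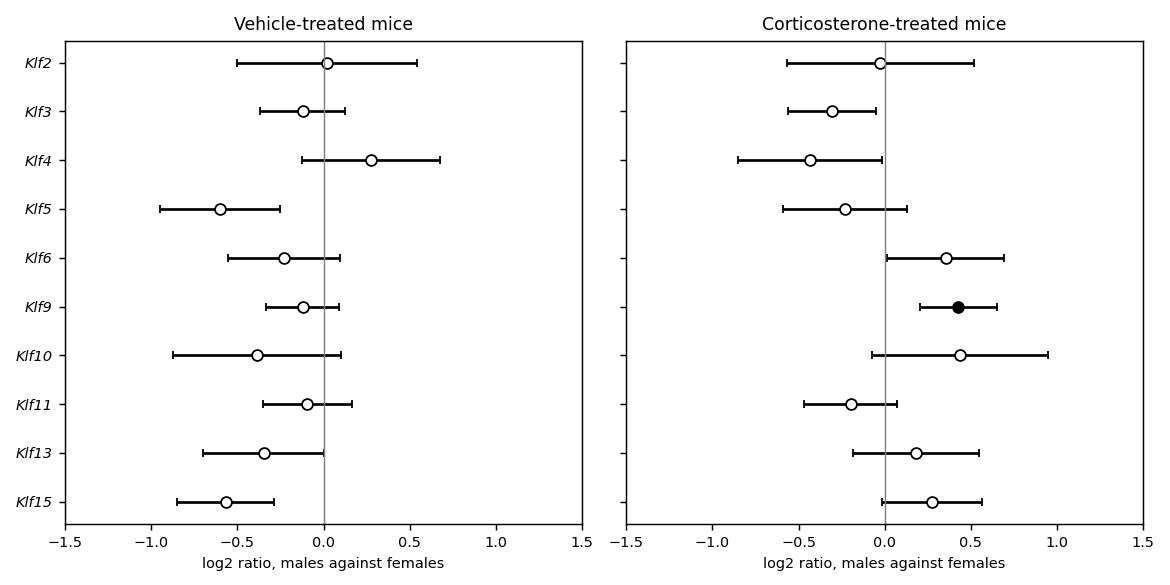
Log2 ratio of males to females for each member among vehicle-treated mice (left) and corticosterone-treated mice (right), with 95% intervals, a filled symbol marking an adjusted p-value under 0.01. Klf15 and Klf5 lie lowest among vehicle-treated mice, and Klf9 is the filled symbol among corticosterone-treated mice.

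Mice of a group varied in the members to different degrees. The SD of log2 CPM was larger in corticosterone-treated females than in corticosterone-treated males for 10 of 10 members, and for 68.8% of all genes tested. Its median over the members was 0.311 in those females and 0.186 in those males. In vehicle-treated mice the median was 0.309 in females and 0.225 in males, so the members also varied more in females without corticosterone. In treated mice the narrowest member was Klf9 (0.124 in females and 0.122 in males). The widest were Klf2 in treated females (0.623) and Klf10 in treated males (0.406).

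With the group means removed, 45 pairs of members were compared over the 23 mice, and 1 pair passed a threshold of 0.05. Klf2 and Klf4 varied together, with Pearson's r of 0.757 (permutation p = 0.00013, adjusted over the pairs 0.00585) and Spearman's rho of 0.626 (permutation p = 0.00307, adjusted 0.138). Without the 2 mice farthest from the median of Klf2, r was 0.737. F3, with the highest Klf4 of its group, also had 19.1 CPM of Klf2, the highest of its group, and F4 was the lowest corticosterone-treated female in Klf2. Without F3 the r was 0.735 and the adjusted permutation p 0.108. F3 also had the highest summed endothelial markers of all mice, 730 CPM, and the part of endothelial RNA in the correlation was not tested.

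**Figure D4:**
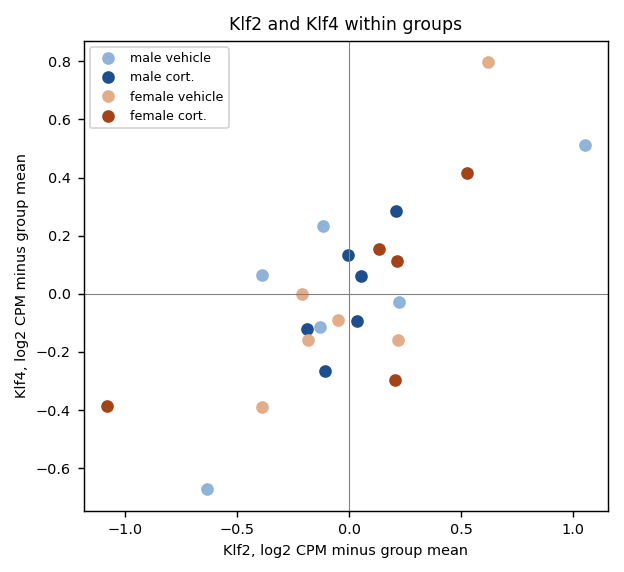
Klf2 against Klf4 in each of the 23 mice, both as log2 CPM minus the mean of the mouse's group, in colours by group. The points rise together (r = 0.757), with F3 at the top and F4 at the left.

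Genes that Klf15 is linked with in muscle were described as a list of 20, all tested. They cover amino acid breakdown, muscle protein breakdown and fat oxidation. In males 5 were upregulated, 2 (Bcat2 and Bckdk) were downregulated and 13 did not pass. In females 4 were upregulated and 16 did not pass. The counts of this and the other lists stand beside 13.2% of all genes upregulated and 13.1% downregulated in males. In females these were 7.40% upregulated and 783 of 13049 genes downregulated. The median log2FC of the list was 0.03 in males and 0.21 in females. Across the alternatives 0 to 3 genes of the list were downregulated in males. Without F2, F6 and F10 the count upregulated in females was 0, where 0.996% of all genes were called in either direction.

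Foxo1, a transcription factor of the muscle fasting response, had 16.9 ± 1.51 CPM in vehicle-treated and 107 ± 9.59 CPM (SD, n = 6) in corticosterone-treated males, a log2FC of 2.66 ± 0.231 (edgeR adjusted p-value 5.11e-08). In females it rose to 65.0 ± 31.3 CPM (n = 5), a log2FC of 1.70 ± 0.231 (edgeR adjusted p-value 3.51e-05). Prodh, which starts the breakdown of proline, was upregulated in males (log2FC 1.38 ± 0.267) and in females (2.01 ± 0.279), and in both sexes every treated mouse lay above every vehicle-treated mouse.

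The ubiquitin ligases of muscle protein breakdown passed in males and not in females. Trim63 (MuRF1) had a log2FC of 1.97 ± 0.306 in males (edgeR adjusted p-value 3.53e-05) and 0.43 ± 0.309 in females (0.321), and Fbxo32 (atrogin-1) 1.57 ± 0.332 (0.000789) and 0.74 ± 0.340 (0.110). The difference between the sexes did not pass for either, with interaction adjusted p-values of 0.0279 for Trim63 and 0.231 for Fbxo32. The enzymes of branched-chain amino acid breakdown (Bcat2, Bckdha, Bckdhb and Dbt) were not upregulated in either sex, and of these Bcat2 was the only one past the threshold, in males and downwards.

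**Figure D5:**
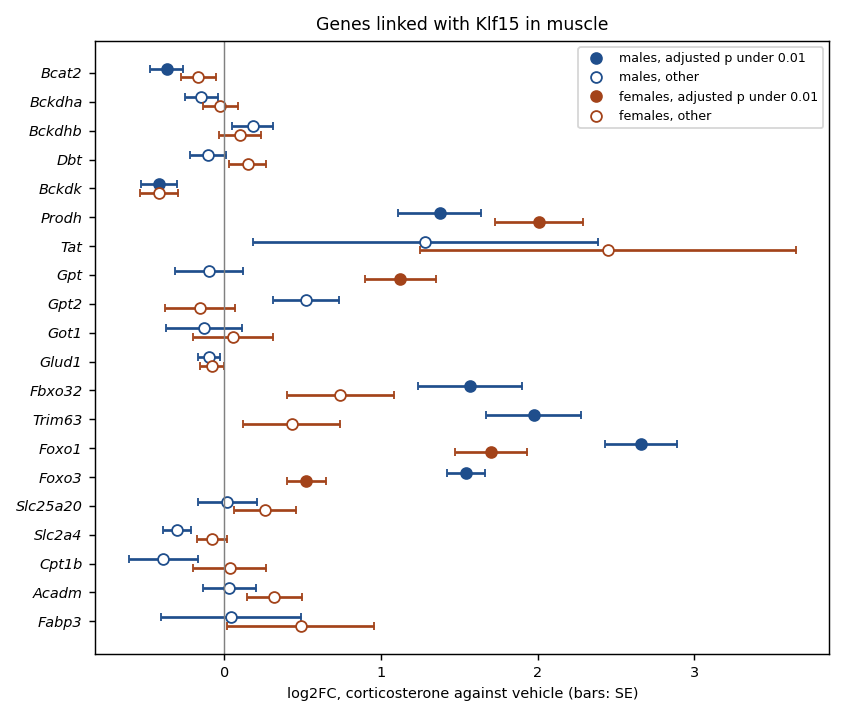
Log2FC of corticosterone against vehicle for the 20 genes linked with Klf15, in males (blue, upper) and females (orange, lower), with SE bars and filled symbols for an adjusted p-value under 0.01. Foxo1, Foxo3, Prodh, Trim63 and Fbxo32 are filled and to the right in males, and Foxo1, Foxo3, Prodh and Gpt in females.

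Of 14 genes of TGF-β signalling, the pathway named for Klf10 and Klf11, 4 were upregulated and 1 downregulated in males, against 13.2% and 13.1% of all genes. In females 0 were upregulated, against 7.40%, and 1 was downregulated (2 upwards at an unadjusted p-value under 0.05, 0 upwards passing in DESeq2 or limma-voom). Smad3, a transducer of the signal, fell in both sexes beyond the overlap of the groups, from 115 ± 19.5 to 45.9 ± 9.17 CPM in males (log2FC -1.33 ± 0.174, edgeR adjusted p-value 5.25e-06) and from 104 ± 25.6 to 46.6 ± 7.87 CPM in females (log2FC -1.15 ± 0.184, adjusted p-value 0.000168). The corepressor Tgif1 (log2FC 1.21 ± 0.218), the receptor Tgfbr1 (0.67 ± 0.119) and Smad4 (0.66 ± 0.080) were upregulated in males, and Smad4 passed the interaction (edgeR adjusted p-value 0.0083). Klf10 was thus upregulated in both sexes beside a downregulated Smad3, as values of separate genes.

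Of 10 genes linked with Klf2 and Klf4 in endothelial cells, 9 were tested. The list was not divided by the direction in which Klf2 and Klf4 act on a gene, so its counts do not measure their activity. In males 2 were upregulated and 1 downregulated, against 13.2% and 13.1% of all genes, and in females 2 were upregulated, against 7.40%. Plat, tissue plasminogen activator, had a log2FC of -1.62 ± 0.251 in males (edgeR adjusted p-value 3.55e-05), and Nfe2l2, the regulator of oxidative stress genes, 0.89 ± 0.135 (2.94e-05). Edn1, endothelin, had 0.98 ± 0.192 in females (edgeR adjusted p-value 0.000953), as did Cav1, a caveolar protein that adipocytes also express, with 0.97 ± 0.218 (0.00265). Without F2, F6 and F10, 0 genes of this list were upregulated in females, where 0.996% of all genes were called in either direction. The nitric oxide synthase Nos3 and thrombomodulin (Thbd) were among those that did not pass in either sex.

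The cofactors that Klf proteins recruit, 11 genes of the CtBP, Sin3 and histone acetyltransferase complexes, were all tested. Kat2b, an acetyltransferase, was the only one upregulated in males (80.2 ± 7.33 to 112 ± 6.04 CPM, log2FC 0.49 ± 0.086, edgeR adjusted p-value 0.000145). In females 0 of 11 passed (1 upwards and 3 downwards at an unadjusted p-value under 0.05 in edgeR, 2 downwards in DESeq2 and 0 in limma-voom). Of the 16 other Klf and Sp genes in the table, 7 were tested. Sp4 (log2FC 0.75 ± 0.136), Sp2 (0.34 ± 0.093) and Sp1 (0.31 ± 0.081) were upregulated in males, against 13.2% of all genes. The count of 3 was 1 without M3 and 1 without M5. None of the other Klf genes passed in males in edgeR. At an unadjusted edgeR p-value under 0.05, 4 of the 7 were higher and 2 were lower in treated males. In females 0 of 7 passed (1 at an unadjusted p-value under 0.05, 0 in DESeq2 and limma-voom).

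Clock genes and GR targets give the setting in which the members moved. Of 19 clock genes, 5 were upregulated and 5 downregulated in males, and 1 and 5 in females. Over all genes tested, 13.2% were upregulated and 13.1% downregulated in males, and 7.40% upregulated and 783 of 13049 downregulated in females. Dbp had a log2FC of -2.73 ± 0.305 in males and -3.10 ± 0.333 in females, and Bhlhe41 of -1.28 ± 0.150 and -1.17 ± 0.160, all with edgeR adjusted p-values under the threshold. Per1, on both lists, passed in males (1.402 ± 0.305) and not in females (0.29 ± 0.313, edgeR adjusted p-value 0.522). Of 12 GR targets, 11 were upregulated in males and 7 in females, among them Cdkn1a (4.43 ± 0.257 and 2.89 ± 0.244), Mt2 (4.10 ± 0.383 and 3.86 ± 0.384), Ddit4 (3.37 ± 0.549 and 2.24 ± 0.540) and Fkbp5 (3.36 ± 0.302 and 3.05 ± 0.305). The upregulated Klf members had smaller log2FC than these 4 genes in each sex, but the 4 were named for their large log2FC. The comparison therefore does not rank the members against GR targets in general. Against Per1, Klf10 had the larger log2FC, at 1.92 ± 0.242 in males and 1.09 ± 0.245 in females.

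The genes whose log2 CPM followed an upregulated member most closely over the 23 mice are given as a description, since the mice share their groups. Klf6 was followed by Cebpd, a transcription factor of the acute phase (r = 0.955), by Depp1 (0.955) and by the long noncoding RNA gene 4930481A15Rik (0.947). Klf15 was followed by Acadsb, an enzyme of isoleucine breakdown (0.942), by Gle1 (0.916) and by Foxo3 (0.911).

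Klf9 was followed by Gucd1 (r = 0.937), Fbxo31 (0.914) and Zfp143 (0.904). Klf10 was followed by Rc3h1, which encodes the RNA-binding protein roquin (0.948), Nomo1 (0.923) and Adat1 (0.921). Klf13 was followed by 4930481A15Rik (0.921), which also follows Klf6, by Tln2 (0.914) and by Napepld (0.901). With the group means removed, these 15 correlations were between 0.493 (Klf15 and Foxo3) and 0.81 (Klf13 and 4930481A15Rik).

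Markers of other cell types moved with treatment as well, in a setting where 13.2% of all genes were upregulated and 13.1% downregulated in males. In females 7.40% were upregulated and 783 of 13049 downregulated. In males 5 of 8 fibroblast markers were downregulated (summed level 825 to 1459 CPM without and 412 to 599 CPM with corticosterone), and in females 1 of 8 (786 to 1383 and 651 to 1217 CPM). Of 5 tested erythrocyte markers, 4 were upregulated in each sex. Of 12 myofiber markers, 1 was upregulated and 1 downregulated in males and 2 were downregulated in females. Of 8 smooth muscle markers, 1 was downregulated in males and 0 of 8 passed in females. At an unadjusted p-value under 0.05, 1 was higher and 2 lower in treated males, and 1 higher and 1 lower in treated females. The only lymphocyte marker tested, Ptprc, was downregulated in males and did not pass in females. No macrophage or hepatocyte marker passed in either sex in edgeR. At an unadjusted p-value under 0.05, 3 of 8 macrophage markers were lower in treated males and 5 of 8 higher in treated females. The interaction was negative at that level for 8 of 8, against 32.1% of all genes in either direction, and 0 passed. Between treated sexes 6 of 8 passed as lower in males, against 23.3% of all genes in either direction. Of 8 hepatocyte markers, 0 in males and 2 in females, both higher, had an unadjusted p-value under 0.05. The part of these cell types in the levels of the members was not tested.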

How the data were processed

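The authors aligned read pairs of 100 bases to mm10 with STAR 2.7.3a and counted them by strand with HTSeq 0.12.4 on Ensembl release 97, and deposited raw counts per gene and mouse. Unassigned read pairs (5 entries, 10.7% to 15.3% of a mouse's total) were left out. Symbols and positions came from GENCODE M21 (GRCm38), which gave a symbol to 55394 of 55573 gene IDs. Groups follow the sex and treatment labels of the samples. No replicates agreed within sampling noise (lowest chi-square per degree of freedom 13.2). That each library is a separate mouse is taken from the labels.

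Genes with over 20 normalized counts (median of ratios, as in the study) in at least 4 mice of 1 group were tested, 13049 in all. The test was edgeR 4.0.16's quasi-likelihood test in R 4.3.3 with TMM factors (0.833 to 1.21) and a mean for each of the 4 groups, with Benjamini-Hochberg adjustment over all genes and a threshold of 0.01. CPM is given after TMM scaling, and log2 CPM used a prior count of 1. A count of 3 equals at most 0.165 CPM. Pairs of members were compared by two-sided permutation tests with 100000 permutations within groups.

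The alternatives were DESeq2 1.42.0, limma 3.58.1 (voom with quality weights), median-of-ratios scaling, filterByExpr (15045 genes), no filter beyond 1 count (31922 genes), an added log2FC limit of 1, each sex alone, a replicate block between the sexes, leaving out F10 and M8, and leaving out each mouse. Leaving out F2, F6 and F10 was chosen after seeing the data. The scripts were tested on simulated counts. The members and lists were chosen with earlier results of these data known. All 10 members are named. Of each pathway list, up to 4 genes with the largest log2FC past the threshold are named with values, and for each upregulated member the 3 genes with the highest Pearson correlation. A gene under this rule is not reported here.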

Additional observations from a re-analysis of the deposited data

Results flagged for a closer look

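Over 40 combinations of member and group, the highest or lowest mouse was compared with the others on log2 CPM, and 2 stood apart. Chance alone gives about 1 in 20, so 2 of 40 is about the number that chance gives. Klf2 was 8.411 CPM in F4, a corticosterone-treated female. Its gap to the nearest mouse in log2 CPM was 0.756 of the group's range, above Dixon's 95% critical value for a group of 5. Klf4 was 21.83 CPM in F3, a vehicle-treated female, with a gap of 0.672 of the range in log2 CPM, also above the critical value.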

How the results depend on the processing

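In males, Klf6, Klf10, Klf13 and Klf15 kept their call in each of 32 alternatives and Klf9 in 31, the exception being the added log2FC limit of 1. The count in males stayed between 5 and 6 with each mouse left out. In females the count of 2 became 1 with the log2FC limit (Klf10), where 5.61% of all genes were called in either direction. It was 0 with each sex fitted alone (4.12% of all genes) and 0 without F2, F6 and F10 (0.996%). With each mouse left out it ranged from 1 (without F2, at 8.56%, or F6, at 7.69%) to 3. For the interaction the count of 0 became 2 with DESeq2, which called 6.87% of all genes. It ranged from 0 to 1 (Klf15, without F3, at 2.31% of all genes, or without F8, at 6.84%). Between vehicle-treated sexes the count of 0 became 1 with DESeq2 (2.18% of all genes) and 1 with limma-voom (1.43%). It stayed 0 with each mouse left out. Between corticosterone-treated sexes the count of 1 (Klf9) became 0 with the log2FC limit (7.77% of all genes) and 0 with the replicate block (17.3%). It was also 0 without F10 and M8 (10.7%) and 0 without F2, F6 and F10 (1.58%). With each mouse left out it ranged from 0 (without F10, at 14.4%, or M12, at 21.7%) to 1. The correlation count of 1 ranged from 0 (without F3) to 1. The cause was not tested, apart from fewer mice or a stricter threshold.

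The members whose sign changed were Klf2 and Klf11, and none of their values passed. The interaction of Klf2 (-0.05) became 0.00449 with no filter, 0.11 with the replicate block, 0.15 without F10 and M8 and 0.37 without F2, F6 and F10, and ranged from -0.23 to 0.25 with each mouse left out. Its ratio between vehicle-treated sexes (0.02) became -0.0496 with limma-voom and -0.0435 with the replicate block, and ranged from -0.27 to 0.17. Its ratio between corticosterone-treated sexes (-0.03) became 0.0339 with no filter, 0.0672 with the replicate block, 0.18 without F10 and M8 and 0.38 without F2, F6 and F10, and ranged from -0.21 to 0.14. Klf11 became 0.16 in the interaction and 0.0609 between corticosterone-treated sexes without F2, F6 and F10. With no filter the median interaction of all genes was -0.20.

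Replicate numbers recur between the sexes only, and the pairing was judged by the correlation of their deviations from the group means. In vehicle-treated pairs it was 0.0846 to 0.477, with 5 of 6 above 0.1 and 3 best with their own number, and in corticosterone-treated pairs -0.377 to 0.242, with 2 of 5 above 0.1 and 1 best with its own number. Not every pair was above 0.1 at either treatment, so the numbers were not taken to pair the mice, which is a hint from the data and not from the design. The replicate block changed the call of Klf9 between corticosterone-treated sexes (adjusted p-value 0.0113) and no other call of a member. Within a sex no paired analysis was possible because numbers do not recur between treatments.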
